A study of Papio anubis and Macaca mulatta with 6 samples.

Results

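The 10 genes described here encode the insulin-like growth factors IGF1 and IGF2, their receptors IGF1R and IGF2R, and the IGF binding proteins IGFBP2, IGFBP3, IGFBP4, IGFBP5, IGFBP6 and IGFBP7. They were picked by gene symbol, with earlier results of these data known. Each symbol was found once among the 34178 genes of the baboon tables and once among the 21356 genes of the rhesus tables. Their mRNAs were counted as unique molecular identifiers (UMIs, each marking 1 captured mRNA molecule) in dissociated testis cells and described across the cell types of each species alone. Single-cell libraries (10x Genomics 3′ chemistry) were made from whole testes of 2 olive baboons (Papio anubis) and 2 rhesus macaques (Macaca mulatta), all prepubertal and untreated, with no genotype or strain given for any animal. Baboon 1 gave libraries 1A and 1B, baboon 2 gave 1 library, rhesus 1 gave 1 library and rhesus 2 gave libraries 2A and 2B. Baboon 2 was the only animal processed with version 3 of the chemistry, the others with version 2. Both sources of ages place a newborn among the 4 animals, but they give the 2 pairs of ages to opposite species and tie no age to an animal, so age and animal cannot be told apart within a species, nor chemistry and animal in baboon. Tissue was digested with collagenase, washed to remove interstitial cells and then trypsinized, so stroma and Leydig cells, which are interstitial, were sampled after that wash.

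IGF1 and IGF2 are secreted peptides that signal through the tyrosine kinase receptor IGF1R, whereas IGF2R, also the cation-independent mannose 6-phosphate receptor, takes up IGF2 for degradation in lysosomes. Binding proteins hold the ligands outside the cell, prolong their life and keep them from or bring them to the receptor, and IGFBP7 is a more distant relative that binds IGFs with low affinity. In the testis, signalling through insulin-family receptors is known to be needed for Sertoli cell number and for Leydig cell development.

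Of the members, IGFBP2 and IGFBP5 are neighbours in both genomes, at chr12:104022062-104051440 on the plus strand and chr12:104059457-104080228 on the minus strand of rhesus Mmul_10, so that their 3′ ends face each other across 8016 bases (7664 bases on chromosome 10 of the baboon build Panubis1.0). IGF2 lies at chr14:2192527-2219265 (minus strand), IGF1 at chr11:102171555-102254490 (minus strand), IGF1R at chr7:77827465-78139764 (plus strand) and IGFBP7 at chr5:76516464-76603185 (plus strand) of Mmul_10. IGFBP3 (chr3:69448222-69457073), IGFBP4 (chr16:51596342-51610726) and IGFBP5 were the 3 binding proteins called higher in stroma-like cells of both species, and the 250 bases before their RefSeq gene starts in Mmul_10 are printed 5′ to 3′ along each gene's strand for that reason. Capitals mark matches, on either strand, to TATAAA (the TATA box), GGGCGG (the GC box, CCGCCC on the other strand) or CCAAT.
IGFBP3 (chr3:69447972-69448221, plus strand): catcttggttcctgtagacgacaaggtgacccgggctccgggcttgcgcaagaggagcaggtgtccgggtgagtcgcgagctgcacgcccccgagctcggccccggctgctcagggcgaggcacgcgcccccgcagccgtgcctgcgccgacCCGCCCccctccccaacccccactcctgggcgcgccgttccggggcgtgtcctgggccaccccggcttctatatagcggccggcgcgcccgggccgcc
IGFBP4 (chr16:51596092-51596341, plus strand): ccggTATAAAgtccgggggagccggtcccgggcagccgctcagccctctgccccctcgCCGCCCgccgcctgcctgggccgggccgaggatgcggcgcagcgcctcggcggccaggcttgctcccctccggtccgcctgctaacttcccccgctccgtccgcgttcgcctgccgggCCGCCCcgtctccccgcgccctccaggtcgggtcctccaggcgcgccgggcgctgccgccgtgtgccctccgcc
IGFBP5 (chr12:104080229-104080478, minus strand): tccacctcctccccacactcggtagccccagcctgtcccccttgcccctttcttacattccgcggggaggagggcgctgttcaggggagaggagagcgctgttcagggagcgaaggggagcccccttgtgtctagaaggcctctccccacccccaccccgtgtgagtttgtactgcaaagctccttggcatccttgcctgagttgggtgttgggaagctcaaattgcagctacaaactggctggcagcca
The IGFBP3 window held 1 reverse GC box, and the IGFBP5 window held no match to these letters. The IGFBP4 window held 2 reverse GC boxes and 1 match to TATAAA, which stands at the end of the window far from the gene start. The letters tatata near the gene start in the IGFBP3 window are no match to TATAAA and were not searched for. Over 21107 RefSeq promoter windows of the same length, 9.90% held a match to TATAAA at any position, 43.4% a GC box and 31.0% a CCAAT. GC content was 75.2% for IGFBP3, 79.6% for IGFBP4 and 61.2% for IGFBP5, against a median of 57.2%. No motif among those searched was in all 3 windows.

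Libraries held 16875294 to 49803025 UMIs, and 5561 to 11161 barcodes per library were called as cells, with a median of 1445 to 2745 UMIs a cell. Doublets made up an estimated 4.44 to 8.93% of cells and were kept. Pairs of libraries of a species shared 1 to 124 cell barcodes, against 6.47 to 120 for barcodes drawn independently; libraries 2A and 2B of rhesus 2 shared 109, against 79.3. Clusters were found without the 10 members and were named only from marker lists that hold none of them. Baboon cells fell into Sertoli-like (12925 and 4319 cells in baboon 1 and 2), stroma-like (1798 and 3202), endothelial-like (157 and 147), germ-like (124 and 114), pericyte-like (97 and 55) and macrophage-like (40 and 73) classes. Rhesus cells fell into stroma-like (5114 and 8454 cells in rhesus 1 and 2), Sertoli-like (3950 and 4099), endothelial-like (152 and 616), germ-like (550 and 102), Leydig-like (370 and 192), pericyte-like (79 and 260), macrophage-like (117 and 71) and myoid-like (22 and 76) classes. No baboon cluster carried the Leydig markers: the 4 listed ones summed to 171 and 272 CPM (a gene's UMIs per 1000000 UMIs of its class) in baboon stroma-like cells, where 5 reached 42572 and 29326 CPM in rhesus Leydig-like cells.

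Several classes were mixed, and levels in them are also given for the cells whose own marker UMIs named the same class as their cluster (called agreeing cells here). Tests on agreeing cells left out classes with under 20 such cells in an animal. These were the pericyte-like and macrophage-like classes in baboon and the pericyte-like and myoid-like classes in rhesus. Contrasts in those tests are thus against the mean of fewer classes. In rhesus 1, 64 of 152 endothelial-like cells held at least 2 lymphoid marker UMIs; the lymphoid list summed to 3328 CPM in this class against 5.55 CPM in rhesus 2, and the endothelial list to 2088 against 5200 CPM. The rhesus 1 pericyte-like cells held 2529 CPM of the pericyte list and 4910 CPM of the stroma list, against 9979 and 2229 CPM in rhesus 2, with NOTCH3, CSPG4 and ABCC9 at 0. Baboon macrophage-like cells held 3704 and 2941 CPM of the lymphoid list beside 6462 and 7190 CPM of the macrophage list. Baboon pericyte-like cells scored equally on the pericyte and peritubular myoid lists, and 61 of 550 and 21 of 102 rhesus germ-like cells were agreeing.

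Each member differed between cell classes wherever it could be tested. Across the 6 baboon classes all 10 members passed edgeR's quasi-likelihood test (adjusted p under 0.05), where 56.9% of all tested genes did, and across the 8 rhesus classes 9 of 9 did, where 45.3% did; IGF2R fell below the rhesus filter on low counts. Each class was then compared with the unweighted mean of the other classes on the log2 scale, and these contrasts share the same sums, so a gene that is high in 1 class is lower elsewhere by construction. In all, 33 of 60 member-class pairs were called in baboon and 27 of 72 in rhesus. Of all tested genes, 6.86% to 41.5% were called in a class in baboon and 2.08% to 34.8% in rhesus. Each test rests on 2 animals per species, and p-values measure only the spread between them. Where a call is said to hold or be lost without an animal, only that animal's sum of the tested class was left out. The animal stayed in the other classes, and the spread then came from those classes alone. The remaining animal's class is thus set against a mean that includes both animals, so a difference between animals enters the contrast. Free RNA in empty droplets and the 3′ capture make levels of different genes incomparable, as do the 2 annotations for levels of different species, so only the order of classes within a species is read.

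**Figure D1:**
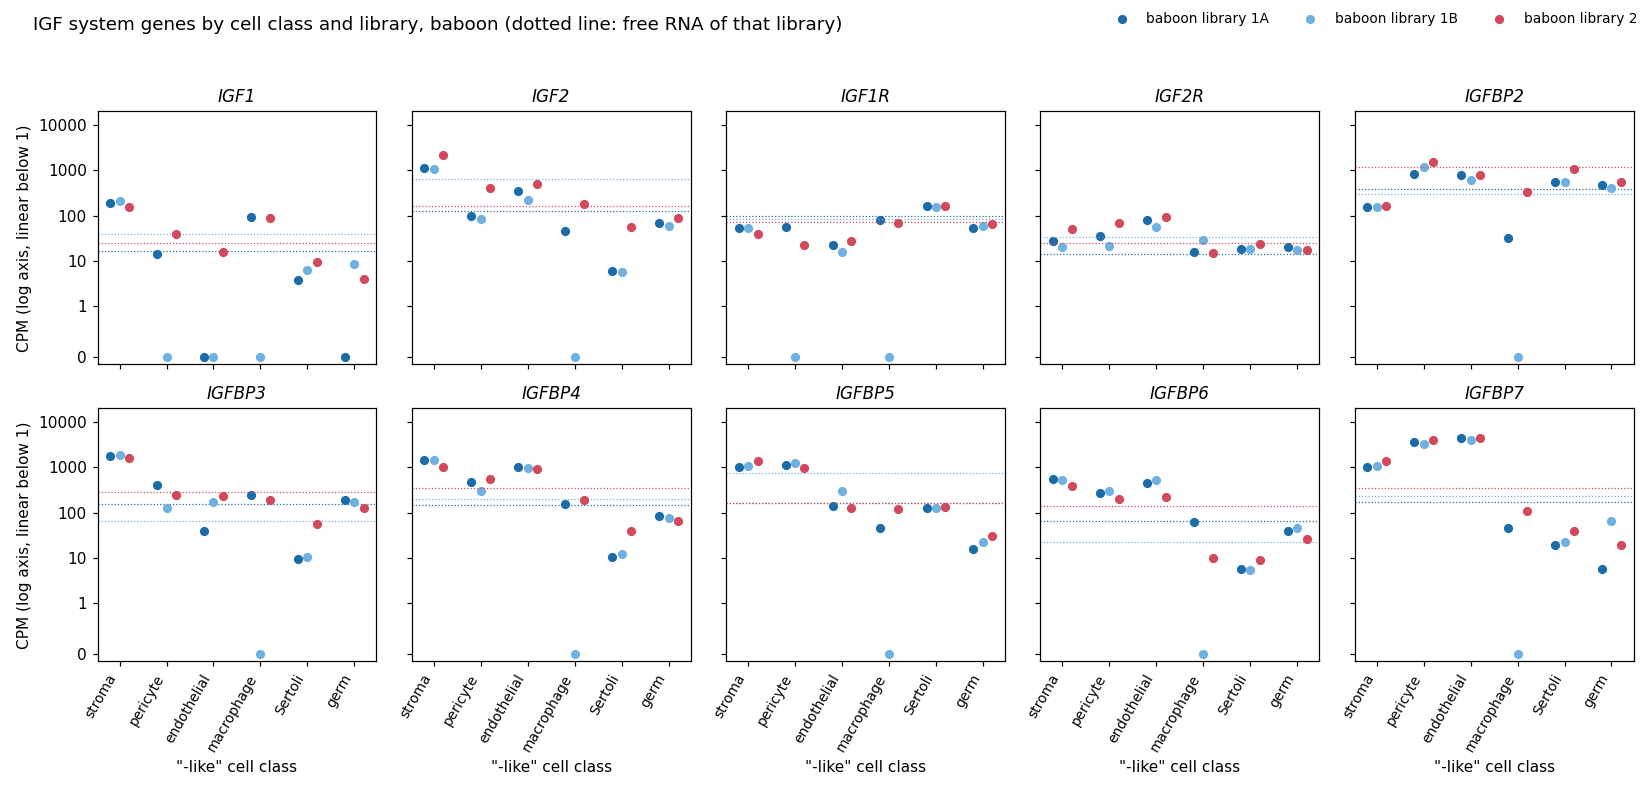
Level of each of the 10 genes in every baboon cell class, in CPM (UMIs per 1000000 UMIs of the class) on an axis that is logarithmic above 1 and linear below it, with 1 point per library and a dotted line at the level of that gene in the library's free RNA. IGF1, IGF2, IGFBP3 and IGFBP4 sit highest in stroma-like cells, IGF1R in Sertoli-like cells and IGFBP7 in endothelial-like cells, in both animals.

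With all class sums and no animal block, stroma-like cells had more members called higher than any other class in both species. With the block in rhesus, endothelial-like cells had 6 (IGF2, IGFBP2, IGFBP3, IGFBP4, IGFBP6, IGFBP7) and stroma-like cells 5. Of all genes, 13.3% and 8.34% were called higher in these classes in that fit. In baboon stroma-like cells, without the block, 7 of 10 members were higher and 1 was lower. Of all tested genes, 9.56% were called higher there and 3.42% lower (13% in all). The median log2 difference of the members was 3.08, against 0.10 over all genes. In rhesus, 5 of 9 tested members were higher and 1 lower, where 3.74% of genes were called higher and 0.865% lower (4.60% in all), with a median of 2.07 against 0.09. IGF1, IGF2, IGFBP3, IGFBP4 and IGFBP5 were higher and IGFBP2 was lower in both species. Without the class sum of rhesus 1, the stroma-like calls of IGF1, IGFBP3 and IGFBP4 were lost (log2 differences 1.65, 0.95 and 1.17). Against the other classes of the same animal alone, the differences were 2.68 and 2.53 for IGF1 in rhesus 1 and 2. They were 3.52 and 2.48 for IGFBP3 and 1.80 and 1.60 for IGFBP4. With the animal as a block, edgeR called each of them higher (adjusted p = 2.3e-07, 2.0e-06 and 0.00054). The endothelial-like calls of IGF2, IGFBP2 and IGFBP4 held without the rhesus 1 sum of their class.

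In Sertoli-like cells most calls went the other way. In baboon, IGF1R was higher and 6 members were lower (IGF1, IGF2, IGFBP3, IGFBP4, IGFBP6, IGFBP7), where 11.7% of genes were called higher and 7.32% lower (19.0% in all); the members' median log2 difference was -2.53 against 0.13. In rhesus, IGF1R was higher and IGF2, IGFBP4 and IGFBP5 were lower, where 8.17% and 3.76% of genes were called (11.9% in all), with a median of -1.68 against 0.12; with the animal as a block 7 members were called in rhesus in place of 4, where 20.8% of genes were. Germ-like cells had 6 members lower and none higher in baboon (13.3% of genes lower, 28.1% higher, 41.5% in all), and 5 lower with IGF1R higher in rhesus (11.3% lower, 23.5% higher, 34.8% in all). Their median log2 differences were -1.63 in baboon and -2.58 in rhesus, against 0.31 and 0.19 over all genes. In the 61 and 21 agreeing germ-like cells of rhesus 1 and 2, IGF2 was 209 and 227 CPM, IGFBP5 32.8 and 15.7 CPM, IGFBP7 62.6 and 25.2 CPM and IGF1R 11.9 and 25.2 CPM (4 and 8 UMIs), while IGF1 had 2 and 0 UMIs and IGFBP4 had 1 and 3. With agreeing cells alone, and so without a pericyte-like or myoid-like class, edgeR called the 5 lower rhesus members lower again. Log2 differences ran from -2.63 ± 0.74 (SE, adjusted p = 0.015) for IGFBP4 to -4.89 ± 0.51 (SE, adjusted p = 3.9e-05) for IGFBP5. IGF1R missed the threshold in that fit (adjusted p = 0.11).

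In endothelial-like and pericyte-like cells, binding proteins made up most of the higher calls, as they do of the members themselves. Baboon endothelial-like cells had IGFBP4, IGFBP6, IGFBP7 and IGF2R higher and IGF1R lower, where 11.5% of genes were called higher and 2.40% lower (13.9% in all). In rhesus endothelial-like cells IGF2, IGFBP2 and IGFBP4 were higher and IGFBP5 was lower (9.31% and 0.958% of genes, 10.3% in all), and 8 members in place of 4 were called with the block, where 16.5% of genes were. Pericyte-like cells had 5 members higher in baboon (IGFBP2, IGFBP4, IGFBP5, IGFBP6, IGFBP7; 6.13% of genes higher, 0.8% lower, 6.93% called in all) and 3 in rhesus (IGF2, IGFBP5, IGFBP7; 2.04% higher, 0.0412% lower, 2.08% in all). Macrophage-like cells had IGF1 higher in both species, with IGFBP7 lower in baboon (5.59% of genes higher, 1.26% lower, 6.86% in all) and IGFBP5 lower in rhesus (7.28% higher, 1.41% lower, 8.69% in all); 5 baboon members in place of 2 were called with the block, where 9.09% of genes were. Rhesus Leydig-like cells had only IGFBP5 called, higher, where 4.07% of genes were higher, 0.453% lower and 4.52% called in all. Among rhesus myoid-like cells only IGFBP2 was called, higher, where 2.87% of genes were higher, 0.36% lower and 3.23% called in all, and 4 members were called with the block, where 4.35% of genes were. In the 47 and 19 agreeing pericyte-like cells of baboon 1 and 2, IGFBP7 was 5796 and 5627 CPM, IGFBP5 1654 and 1099 CPM, IGFBP4 752 and 429 CPM, IGFBP6 492 and 279 CPM and IGFBP2 561 and 503 CPM. As 19 cells are fewer than the 20 a sum needed, these were not tested.

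**Figure D2:**
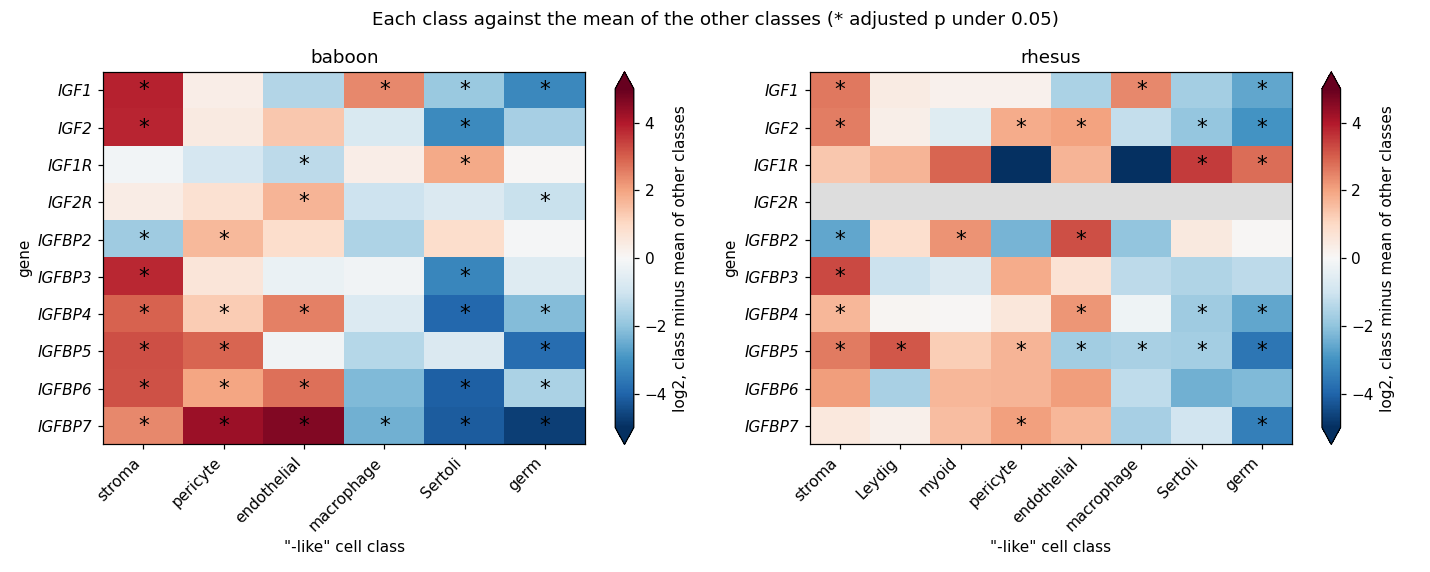
Log2 difference of each gene between a class and the mean of the other classes as a colour scale, 1 panel per species with genes as rows and classes as columns, where asterisks mark an adjusted p under 0.05 by edgeR's quasi-likelihood test. Red cells (higher) gather in the stroma-like column of both species and blue cells (lower) in the germ-like and baboon Sertoli-like columns; rhesus IGF2R, in grey, was not tested, and the darkest blue cells of rhesus IGF1R are classes without a UMI.

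IGF1, the ligand made widely under growth hormone, was highest in stroma-like cells of baboon, at 199.8 CPM in baboon 1 and 154 CPM in baboon 2. Macrophage-like cells came next at 61.7 and 89.1 CPM (6 and 18 UMIs), and Sertoli-like and germ-like cells lay between 2.91 and 9.34 CPM. Stroma-like and macrophage-like cells were separated from every other class in both animals, while pericyte-like, endothelial-like and Sertoli-like cells overlapped as neighbours. Against the mean of the other classes, edgeR's quasi-likelihood test gave a log2 difference of 3.83 ± 0.40 (SE; adjusted p = 8.1e-05) for stroma-like cells and 2.39 ± 0.61 (SE; adjusted p = 0.036) for macrophage-like cells. The macrophage call was lost without the class sum of either animal (adjusted p = 0.12 without baboon 1 and 0.52 without baboon 2). In the 12 and 22 agreeing macrophage-like cells, IGF1 stood at 205 and 304 CPM, above the 199.8 and 154 CPM of the whole stroma-like class. The order of stroma-like and macrophage-like cells is thus not settled for such cells, which were too few for a test. Among baboon stroma-like cells thinned to 1000 UMIs each, 16.6% and 13.1% of stroma-like cells (21.1% and 22.8% without thinning), against 0.463% and 1.25% of Sertoli-like cells (1.09% and 6.25%), held an IGF1 UMI. Thinning left out 506 of 1798 and 274 of 3202 stroma-like and 1255 of 12925 and 401 of 4319 Sertoli-like cells that were shallower. The lower level in Sertoli-like cells (-1.86 ± 0.52 SE, adjusted p = 0.026 by the same test) was lost without baboon 1 (adjusted p = 0.17) and in agreeing cells (-0.79, adjusted p = 0.33).

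In rhesus, IGF1 was again highest in stroma-like cells, at 255 CPM in rhesus 1 and 83.3 CPM in rhesus 2, and in macrophage-like cells, at 163 and 74 CPM, and these neighbours overlapped. Every other named class was at 85 CPM or less in both animals, and each class was higher in rhesus 1 than in rhesus 2. By edgeR the log2 differences were 2.64 ± 0.51 (SE; adjusted p = 0.0065) in stroma-like and 2.42 ± 0.63 (SE; adjusted p = 0.025) in macrophage-like cells. With the animal as a block, edgeR's adjusted p was 2.3e-07 and 2.4e-05. From rhesus 1 and rhesus 2 alone the differences were 2.68 and 2.53 in stroma-like and 2.19 and 2.73 in macrophage-like cells. Neither call held without 1 animal's class sum: the first had an adjusted p of 0.24 without rhesus 1, the second 0.45 without rhesus 1 and 0.087 without rhesus 2. Germ-like cells were lower for IGF1 (-2.58 ± 0.85 SE, adjusted p = 0.029), with adjusted p = 0.13 and 0.18 when rhesus 1 or rhesus 2 was left out of the class. Leydig-like cells held IGF1 at 42.8 CPM in rhesus 1 and 19 CPM in rhesus 2 and did not pass (0.39 ± 0.64 SE, adjusted p = 0.89). Free RNA held IGF1 at 56.7 CPM in rhesus 1 and at 11.3 and 35.7 CPM in libraries 2A and 2B. The Leydig-like level of rhesus 1 lay below it and is not taken to show expression.

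IGF2, the fetal growth factor that is expressed from the paternal allele, was counted in every class of both species. In baboon, stroma-like cells held 1115 CPM in baboon 1 and 2154 CPM in baboon 2, apart from every other class in both animals. Endothelial-like (292 and 509.8 CPM) and pericyte-like (96.3 and 401 CPM) cells followed and overlapped, and Sertoli-like cells were lowest at 5.82 and 57.2 CPM. A UMI of IGF2 was found in 63% and 84.5% of stroma-like cells (68.4% and 92.7% without thinning), against 0.54% and 7.15% of Sertoli-like cells (1.18% and 19.5%), at 1000 UMIs a cell. Relative to the other classes, edgeR's log2 difference was 3.81 ± 0.54 (SE; adjusted p = 0.0006) in stroma-like and -3.19 ± 0.82 (SE; adjusted p = 0.016) in Sertoli-like cells, the latter missing the threshold without baboon 1 (adjusted p = 0.055). Every class was higher in baboon 2 than in baboon 1. Sertoli-like cells of baboon 2 exceeded those of baboon 1 9.82-fold, with exact 95% Poisson intervals of 5.01 to 6.73 CPM and 54.7 to 59.7 CPM; such intervals cover counting error only, and with 1 animal on each side the difference was not tested. Both levels lay below free RNA. It held IGF2 at 129 and 648 CPM in libraries 1A and 1B and at 162 CPM in baboon 2. Neither level is taken to show expression by Sertoli-like cells, and the part of free RNA in them was not tested. The pericyte-like level of baboon 1 (96.3 CPM) lay below free RNA of both its libraries and is treated in the same way. The endothelial-like level of that animal (292 CPM) lay between free RNA of 1A and of 1B. In agreeing Sertoli-like cells IGF2 was 5.91 and 35.1 CPM, and the stroma list in the class summed to 82.1 CPM in baboon 1 and 295 CPM in baboon 2; its part in the gap was not tested.

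Rhesus IGF2 reached 9426 CPM in rhesus 1 and 11086 CPM in rhesus 2 in stroma-like cells, and 98.9% and 99.7% of stroma-like cells (98.9% and 99.6% without thinning), against 27.5% and 34.1% of Sertoli-like cells (40.2% and 45.3%), held a UMI at 1000 UMIs a cell. Thinning left out 898 and 1898 stroma-like and 396 and 692 Sertoli-like cells of rhesus 1 and 2. Pericyte-like cells held 7928 and 6019.7 CPM, Leydig-like cells 1561 and 2211 CPM, Sertoli-like cells 582 and 874 CPM and germ-like cells 457 and 315 CPM. Stroma-like and pericyte-like cells lay above these other classes in both animals, and both overlapped with endothelial-like cells. Free RNA held IGF2 at 2214 to 2610.2 CPM in the rhesus libraries, so the level in Leydig-like cells was 0.689 to 0.938 times that of free RNA. Leydig-like, Sertoli-like, germ-like, macrophage-like and myoid-like cells of both animals and endothelial-like cells of rhesus 1 were at or below free RNA. Such levels are not taken to show expression by the class, and the part of free RNA in them was not tested. The edgeR log2 difference was 2.55 ± 0.39 (SE; adjusted p = 0.0011) in stroma-like and -2.97 ± 0.60 (SE; adjusted p = 0.0016) in germ-like cells, and both calls held without either animal's class sum. In agreeing pericyte-like cells IGF2 was 1714 CPM in rhesus 1 (7 cells) and 5689 CPM in rhesus 2. Calls in pericyte-like (1.85 ± 0.41 SE, adjusted p = 0.022) and Sertoli-like cells (-1.95 ± 0.55 SE, adjusted p = 0.032) did not hold: without rhesus 1 and rhesus 2 in turn, the adjusted p was 0.30 and 0.27 for the first and 0.21 and 0.19 for the second.

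Endothelial-like cells of the 2 rhesus animals held very different amounts of IGF2, at 1486 CPM in rhesus 1 and 12737 CPM in rhesus 2. The libraries of rhesus 2 gave 12862 (2A) and 12594 CPM (2B), and the 95% intervals were 1374 to 1606 CPM for rhesus 1 and 12587 to 12888 CPM for rhesus 2. Only 45.1% of rhesus 1 cells, against 98.1% of rhesus 2 cells, held a UMI at 1000 UMIs a cell (60.5% and 98.9% without thinning). In agreeing endothelial-like cells IGF2 was 1147 CPM in rhesus 1 (37 cells) and 12496 CPM in rhesus 2. None of these 37 cells held 2 or more lymphoid UMIs, which follows in large part from their choice by marker UMIs. The part of lymphoid cells in the gap was not tested. The class as a whole was called higher by edgeR (2.02 ± 0.40 SE, adjusted p = 0.0034), but without rhesus 2 the log2 difference turned to -0.21 (adjusted p = 1.0). IGFBP2, the binding protein next to IGFBP5, moved the same way in these cells, at 1028 CPM in rhesus 1 and 3256 CPM in rhesus 2, and its call held without either animal (3.23 ± 0.44 SE, adjusted p = 0.00015). In agreeing cells IGFBP2 was 1779 and 3261 CPM.

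IGF1R, the signalling receptor, was the only member whose mean level was highest in Sertoli-like cells, and it was so in both species. In baboon these cells held 162 CPM in baboon 1 and 160.4 CPM in baboon 2, and no other class passed 69.3 CPM in either animal. Germ-like cells were next with 55.2 and 66.8 CPM, and endothelial-like cells held 19.4 and 28.3 CPM. Free RNA held IGF1R at 98.1 and 83.1 CPM in libraries 1A and 1B and at 72.2 CPM in baboon 2. All classes but Sertoli-like cells lay below it, and their levels are not taken to show expression. The Sertoli level was 1.69 to 2.22 times that of free RNA, and 13.3% and 13.8% of Sertoli-like cells (27.2% and 49% without thinning), against 4.95% and 3.79% of stroma-like cells (6.9% and 7.46%), had a UMI after thinning to 1000. Sertoli-like cells differed from the mean of the other classes by 1.91 ± 0.22 (SE; adjusted p = 0.00018) on the log2 scale (edgeR), and the call held without either animal. Endothelial-like cells were lower by the same test, at -1.32 ± 0.30 (SE; adjusted p = 0.011), but the adjusted p was 0.16 without baboon 1 and 0.067 without baboon 2. With cells classed one by one from their own marker UMIs, which replaced the pericyte-like and macrophage-like classes by a lymphoid-like one, the difference was 1.04 ± 2.94 (SE; adjusted p = 0.99).

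In rhesus, IGF1R UMIs were few, and Sertoli-like cells held 27 CPM in rhesus 1 and 26.4 CPM in rhesus 2. Germ-like cells followed at 11.4 and 26.4 CPM, stroma-like cells held 7.15 and 6.59 CPM, and no UMI was found in macrophage-like or pericyte-like cells of either animal. Free RNA held IGF1R at 7.33 CPM in rhesus 1 and at 8.30 and 9.98 CPM in libraries 2A and 2B. The stroma-like levels lay below it and are not taken to show expression by stroma-like cells. The myoid-like value of 28.3 CPM in rhesus 2 rested on 4 UMIs, with 0 in rhesus 1. Sertoli-like, germ-like, myoid-like, endothelial-like and stroma-like cells overlapped as neighbours in this order. edgeR called IGF1R higher in Sertoli-like (adjusted p = 0.0047) and germ-like cells (adjusted p = 0.021); the fitted differences are not printed because the mean of the other classes includes 2 at 0. Without rhesus 1 the Sertoli adjusted p was 0.060. The germ adjusted p was 0.17 without rhesus 2, 0.11 in agreeing cells and 0.34 with cells classed one by one, and 61 of 550 and 21 of 102 germ-like cells were agreeing.

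**Figure D3:**
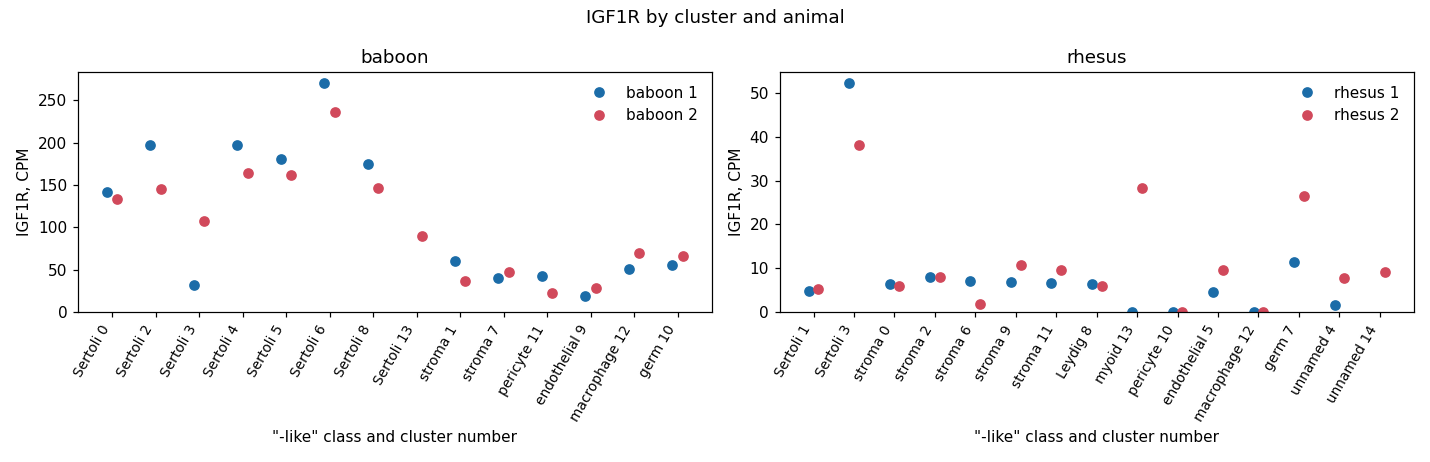
Level of IGF1R in every cluster, in CPM with 1 point per animal, for baboon and rhesus, with clusters labelled by class and number. Rhesus Sertoli-like cluster 3 lies far above Sertoli-like cluster 1 in both animals, whereas in baboon Sertoli-like cluster 6 is highest in both animals and cluster 3 lowest of that class in baboon 1.

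Within the Sertoli-like class, IGF1R varied between clusters. In rhesus, cluster 3 (led by SOX9, MAP3K21, MLXIPL and MYO6) held 52.1 and 38.2 CPM in rhesus 1 and 2, and cluster 1 (led by PCP4, FABP3 and INHA) held 4.83 and 5.24 CPM, a 10.8-fold and 7.29-fold difference. Both levels of cluster 1 lay below free RNA of the same animal and are not taken to show expression in that cluster. Median UMIs a cell were 2047 in cluster 3 and 1459 in cluster 1. In baboon, IGF1R was 32 and 108 CPM in cluster 3, which was led by ribosomal protein genes, and highest in both animals in cluster 6, at 271 and 237 CPM, where cells had a median of 6383 UMIs. SOX9 is a defining gene of Sertoli cells, so these clusters differ in the markers themselves, and the part of depth or Sertoli marker content in the IGF1R values was not tested.

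IGF2R, the scavenging receptor, was highest in baboon endothelial-like cells, at 70.3 CPM in baboon 1 and 93.6 CPM in baboon 2. Pericyte-like (32.1 and 67.8 CPM) and stroma-like (24.7 and 50.9 CPM) cells followed and overlapped, and germ-like cells held 19.4 and 17.9 CPM. Free RNA held IGF2R at 14.5 and 33.2 CPM in libraries 1A and 1B and at 25.3 CPM in baboon 2. The germ-like level of baboon 2 lay below it and is not taken to show expression. In baboon 1 the germ-like, stroma-like and pericyte-like levels lay between free RNA of 1A and of 1B. By edgeR's quasi-likelihood test IGF2R was higher in endothelial-like cells (1.71 ± 0.29 SE, adjusted p = 0.0015) and lower in germ-like cells (-1.1 ± 0.36 SE, adjusted p = 0.028). The germ call was lost without either animal's class sum (adjusted p = 0.100 without baboon 1 and 0.17 without baboon 2), whereas the endothelial call held. In rhesus, IGF2R stood at 5.91 CPM in rhesus 1 and 4.67 CPM in rhesus 2 in stroma-like cells (48 and 56 UMIs), was at 5.94 CPM or less in every other named class, and had no UMI in macrophage-like or myoid-like cells. No class difference of rhesus IGF2R was tested, since it was below the filter.

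IGFBP3, the main carrier of IGFs in serum, had the largest log2 difference of the binding proteins in baboon stroma-like cells. Stroma-like cells held 1811 CPM in baboon 1 and 1639.8 CPM in baboon 2, pericyte-like cells 337 and 249 CPM, and Sertoli-like cells 9.85 and 55 CPM, with stroma-like cells apart from every other class in both animals. Libraries 1A and 1B of baboon 1 gave 1794 and 1838 CPM. A UMI was found in 67% and 65.9% of stroma-like cells (72% and 77.9% without thinning), against 0.891% and 5.77% of Sertoli-like cells (1.97% and 16.5%), at 1000 UMIs a cell. The edgeR log2 differences were 3.77 ± 0.37 (SE; adjusted p = 4.7e-05) in stroma-like and -3.28 ± 0.56 (SE; adjusted p = 0.0016) in Sertoli-like cells, and both held without either animal. The Sertoli level was 0.0594 to 0.191 times that of free RNA. Its call held in agreeing cells (-3.79 ± 0.67 SE, adjusted p = 0.003) and was lost with cells classed one by one (-0.16 ± 3.59 SE, adjusted p = 1.0), where the mean of the other classes took in the lymphoid-like class, itself at -13.2.

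In rhesus stroma-like cells IGFBP3 was 1336 CPM in rhesus 1 and 141 CPM in rhesus 2, a 9.46-fold gap. Both libraries of rhesus 2 agreed (141 CPM in 2A and 141 CPM in 2B), and the 95% intervals were 1311 to 1362 CPM in rhesus 1 and 135 to 148 CPM in rhesus 2. A UMI was found in 53.5% and 10.4% of stroma-like cells (61.5% and 13.3% without thinning), against 4.28% and 0.939% of Sertoli-like cells (7.9% and 1.88%), after thinning. Every rhesus class was higher in rhesus 1, including Sertoli-like cells (65.9 and 11.3 CPM), and free RNA held IGFBP3 at 192 CPM in rhesus 1 against 44.5 and 34.2 CPM in the libraries of rhesus 2. With that gap, all neighbours in the order of classes overlapped. Relative to the other classes of the same sums, the stroma difference was 3.31 ± 0.70 (SE; adjusted p = 0.012) by edgeR. Without the stroma-like sum of rhesus 1 it was 0.95, where the mean of the other classes still held rhesus 1. From 1 animal alone it was 3.52 in rhesus 1 and 2.48 in rhesus 2.

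IGFBP4, a binding protein that mostly inhibits IGF action and is cut by the protease PAPPA, was high in both stroma-like and endothelial-like cells. Baboon stroma-like cells held 1429.7 CPM in baboon 1 and 1017 CPM in baboon 2 and endothelial-like cells 989 and 933 CPM, and all 6 classes stood apart in this gene in the order stroma-like, endothelial-like, pericyte-like, macrophage-like, germ-like and Sertoli-like. The lowest class, Sertoli-like cells, held 11 and 38.6 CPM. edgeR called IGFBP4 higher in stroma-like (2.96 ± 0.30 SE, adjusted p = 6.1e-05), endothelial-like (2.54 ± 0.30 SE, adjusted p = 9.0e-05) and pericyte-like cells (1.26 ± 0.34 SE, adjusted p = 0.047) and lower in germ-like (-2.15 ± 0.42 SE, adjusted p = 0.0016) and Sertoli-like cells (-3.94 ± 0.47 SE, adjusted p = 0.00021). Of these only the pericyte call was lost, with an adjusted p of 0.22 without baboon 1 and 0.34 without baboon 2.

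In rhesus, IGFBP4 was 80.7 CPM in rhesus 1 and 87.9 CPM in rhesus 2 in endothelial-like cells and 84.5 and 44.4 CPM in stroma-like cells, and these neighbours overlapped. Sertoli-like (8.51 and 8.53 CPM) and germ-like cells (4.29 and 6.59 CPM) had the lowest means, although Leydig-like cells of rhesus 2 (8.31 CPM) reached the Sertoli level. By edgeR the log2 difference was 2.21 ± 0.40 (SE; adjusted p = 0.0019) in endothelial-like cells, a call that held without either animal, and 1.67 ± 0.39 (SE; adjusted p = 0.022) in stroma-like cells, which had an adjusted p of 0.30 without rhesus 1. The lower calls in Sertoli-like (-1.77 ± 0.50 SE, adjusted p = 0.031) and germ-like cells (-2.62 ± 0.64 SE, adjusted p = 0.0057) were lost too: the first had adjusted p = 0.16 without rhesus 1 and 0.31 without rhesus 2, the second 0.11 without rhesus 1.

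IGFBP5, which also binds extracellular matrix, marked several mesenchymal classes at once. In baboon it was 1056 CPM in baboon 1 and 1417 CPM in baboon 2 in stroma-like cells and 1161 and 960.3 CPM in pericyte-like cells, which overlapped, and all other classes were at 215 CPM or less. edgeR gave 3.23 ± 0.28 (SE; adjusted p = 2.7e-05) for stroma-like, 2.89 ± 0.30 (SE; adjusted p = 5.1e-05) for pericyte-like and -3.79 ± 0.46 (SE; adjusted p = 6.5e-05) for germ-like cells, and these 3 calls held without either animal. In rhesus, stroma-like (2028 and 4631 CPM), Leydig-like (2458 and 3976 CPM), pericyte-like (1141 and 2913 CPM) and myoid-like cells (1717 and 1653 CPM) overlapped and lay above every other class. IGFBP5 was the only member called in rhesus Leydig-like cells, at 5.0 to 6.63 times free RNA and with a log2 difference of 3.1 ± 0.29 (SE; adjusted p = 1.7e-05) by edgeR, a call that held without either animal. The Leydig-like sum of rhesus 2 also held 18752 CPM of erythroid markers, almost all in 1 cell with 15769 erythroid UMIs, and their part in the value was not tested.

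Also by edgeR, rhesus IGFBP5 was higher in stroma-like (2.6 ± 0.29 SE, adjusted p = 0.00013) and lower in germ-like cells (-3.63 ± 0.48 SE, adjusted p = 6.9e-05), and both calls held without either animal. Pericyte-like cells were higher in IGFBP5 (1.72 ± 0.31 SE, adjusted p = 0.0066), but the adjusted p was 0.75 without rhesus 2. The 7 agreeing pericyte-like cells of rhesus 1 held 95.2 CPM against 2306 CPM in rhesus 2. A further 3 calls were lower and were each lost without 1 animal: Sertoli-like cells had adjusted p = 0.014 (0.17 without rhesus 1 and 0.064 without rhesus 2), endothelial-like cells 0.014 (0.24 without rhesus 2) and macrophage-like cells 0.026 (0.26 without rhesus 1 and 0.16 without rhesus 2).

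IGFBP6, a binding protein with a preference for IGF2, had its highest mean levels in stroma-like and endothelial-like cells of both species. In baboon it was 549.6 CPM in baboon 1 and 385 CPM in baboon 2 in stroma-like cells, 480.2 and 227 CPM in endothelial-like cells and 278 and 203 CPM in pericyte-like cells, which overlapped as neighbours, and 5.63 and 9.22 CPM in Sertoli-like cells. Log2 differences by edgeR were 3.19 ± 0.32 (SE; adjusted p = 5.5e-05) in stroma-like, 2.74 ± 0.33 (SE; adjusted p = 9.0e-05) in endothelial-like, 1.96 ± 0.38 (SE; adjusted p = 0.0063) in pericyte-like, -1.59 ± 0.44 (SE; adjusted p = 0.012) in germ-like and -4.09 ± 0.49 (SE; adjusted p = 0.00021) in Sertoli-like cells. The pericyte call was lost without baboon 1 (adjusted p = 0.19) and the germ call without baboon 2 (adjusted p = 0.13). With cells classed one by one the Sertoli call was lost as well (-1.39, adjusted p = 1.0), in a fit where the lymphoid-like class stood at -12.03, while in agreeing cells it held (-4.83 ± 0.39 SE, adjusted p = 8.0e-05). In rhesus, stroma-like cells differed 9.12-fold between animals, at 1726 CPM in rhesus 1 and 189 CPM in rhesus 2, and endothelial-like cells held 1286 and 522 CPM. The libraries of rhesus 2 gave 179.7 and 199.6 CPM in stroma-like cells. Myoid-like cells went the other way, at 176 and 1413 CPM. No rhesus class was called for IGFBP6 by edgeR without the animal block, and endothelial-like cells came closest, at 2.07 ± 0.72 (SE; adjusted p = 0.087). With the block, edgeR called endothelial-like (adjusted p = 0.013) and myoid-like cells (adjusted p = 0.039) higher. In the same fit Sertoli-like (adjusted p = 0.017) and germ-like cells (adjusted p = 0.033) were lower.

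IGFBP2, which is abundant in fetal tissues, was the one binding protein called lower in stroma-like cells. Baboon pericyte-like cells held 941 CPM in baboon 1 and 1514 CPM in baboon 2, Sertoli-like cells 553 and 1067 CPM, endothelial-like cells 716 and 799 CPM and stroma-like cells 159 and 161 CPM. The Sertoli level was 0.915 to 1.81 times that of free RNA. Free RNA held IGFBP2 at 394 and 305 CPM in libraries 1A and 1B and at 1166 CPM in baboon 2. Stroma-like levels of both animals and Sertoli-like and endothelial-like levels of baboon 2 lay below it. Those levels are not taken to show expression. By edgeR IGFBP2 was lower in stroma-like (-1.79 ± 0.54 SE, adjusted p = 0.049) and higher in pericyte-like cells (1.63 ± 0.43 SE, adjusted p = 0.041), yet neither call held: the adjusted p was 0.21 and 0.24 for stroma-like cells, and 0.14 and 0.38 for pericyte-like cells, without baboon 1 and baboon 2. In rhesus it was 1028 CPM in rhesus 1 and 3256 CPM in rhesus 2 in endothelial-like cells, 1871 and 1059.9 CPM in myoid-like cells and 92.2 and 36.6 CPM in stroma-like cells. The lower level in rhesus stroma-like cells (-2.62 ± 0.68 SE, adjusted p = 0.039) had an adjusted p of 0.071 without rhesus 1 and 0.42 without rhesus 2. Myoid-like cells were called higher (2.23 ± 0.49 SE, adjusted p = 0.018), with adjusted p = 0.30 and 0.25 without rhesus 1 and rhesus 2. IGFBP2 also differed between animals in Leydig-like cells (128 and 637 CPM), and that class was not called (edgeR, 0.85 ± 0.52 SE, adjusted p = 0.48).

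IGFBP7, a vascular basement membrane protein also called angiomodulin, was highest in endothelial-like and pericyte-like cells and lowest in Sertoli-like and germ-like cells in baboon. There it was 4249.6 CPM in baboon 1 and 4499 CPM in baboon 2 in endothelial-like cells and 3535 and 3977 CPM in pericyte-like cells, and stroma-like cells came next at 1020.3 and 1417 CPM. Sertoli-like (20.3 and 38.6 CPM) and germ-like cells (26.1 and 19.5 CPM) were lowest, below free RNA at 174 to 350.2 CPM. edgeR's log2 differences were 4.62 ± 0.26 (SE; adjusted p = 1.9e-07) in endothelial-like, 4.27 ± 0.26 (SE; adjusted p = 9.6e-07) in pericyte-like and 2.41 ± 0.27 (SE; adjusted p = 0.00014) in stroma-like cells, against -4.15 ± 0.43 (SE; adjusted p = 0.00011) in Sertoli-like, -4.72 ± 0.45 (SE; adjusted p = 1.4e-05) in germ-like and -2.42 ± 0.42 (SE; adjusted p = 0.0026) in macrophage-like cells. All 6 calls held without either animal. Rhesus IGFBP7 was 2720.4 CPM in rhesus 1 and 4273 CPM in rhesus 2 in pericyte-like cells, 3277 and 1590.4 CPM in endothelial-like cells, 1831 and 780.4 CPM in stroma-like cells and 199 and 52.7 CPM in germ-like cells, and all neighbouring classes overlapped. Pericyte-like cells were higher by edgeR (2.06 ± 0.50 SE, adjusted p = 0.048), with adjusted p = 0.14 and 0.70 without rhesus 1 and rhesus 2, and germ-like cells were lower (-3.41 ± 0.78 SE, adjusted p = 0.0036), with 0.061 without rhesus 2. In endothelial-like cells the difference was 1.66 ± 0.51 (SE; adjusted p = 0.056, or 0.0059 with the animal as a block), and agreeing cells held 5417 and 1617 CPM.

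**Figure D4:**
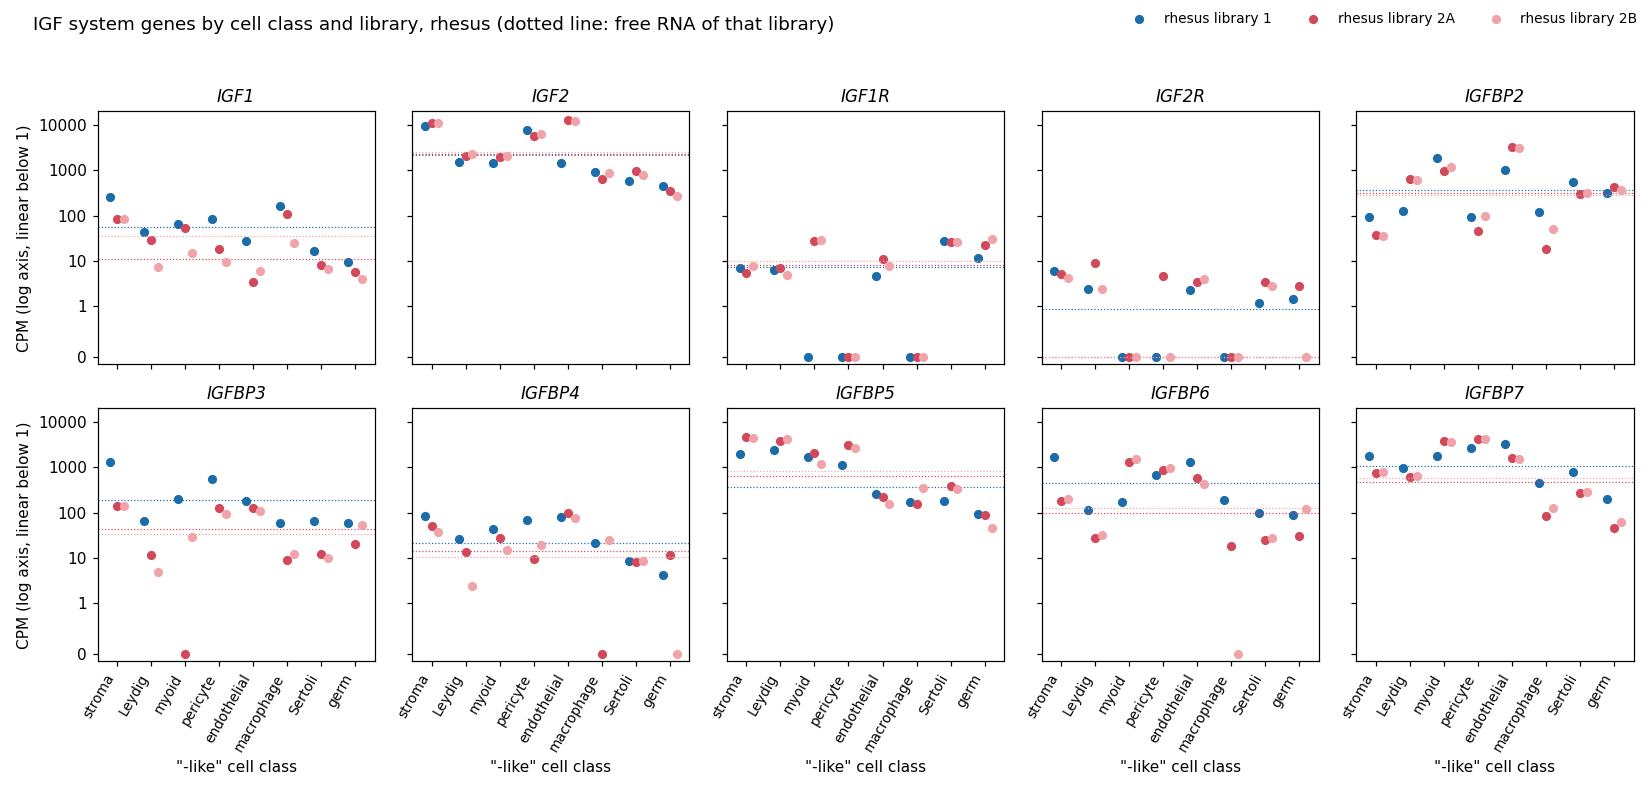
Level of each of the 10 genes in every rhesus cell class, in CPM (UMIs per 1000000 UMIs of the class) on an axis that is logarithmic above 1 and linear below it, with 1 point per library and a dotted line at the level of that gene in the library's free RNA. IGFBP3 and IGFBP6 in stroma-like cells and IGF2 in endothelial-like cells are far apart between rhesus 1 (library 1) and rhesus 2 (libraries 2A and 2B), whereas IGF1R in Sertoli-like cells nearly coincides.

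The 2 rhesus animals differed in a gene-specific way within the same class. In stroma-like cells IGF1, IGFBP2, IGFBP3, IGFBP4, IGFBP6 and IGFBP7 were higher in rhesus 1 (3.06-, 2.52-, 9.46-, 1.9-, 9.12- and 2.35-fold), while IGF2 (1.18-fold) and IGFBP5 (2.28-fold) were higher in rhesus 2. The corresponding folds in baboon stroma-like cells ran from 1.02 for IGFBP2 to 2.06 for IGF2R. IGF1R (7.15 and 6.59 CPM) and IGF2R (5.91 and 4.67 CPM) were low in both animals. For each of the other 8 members, libraries 2A and 2B of rhesus 2 lay closer to each other in stroma-like cells than either did to rhesus 1. With 1 animal on each side, and ages that cannot be assigned, none of these differences was tested, and free RNA of rhesus 1 was also higher in IGFBP3, IGFBP6 and IGFBP7 (448 CPM of IGFBP6 and 1084 CPM of IGFBP7, against 98.9 and 129 CPM and 478 and 579 CPM in rhesus 2).

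**Figure D5:**
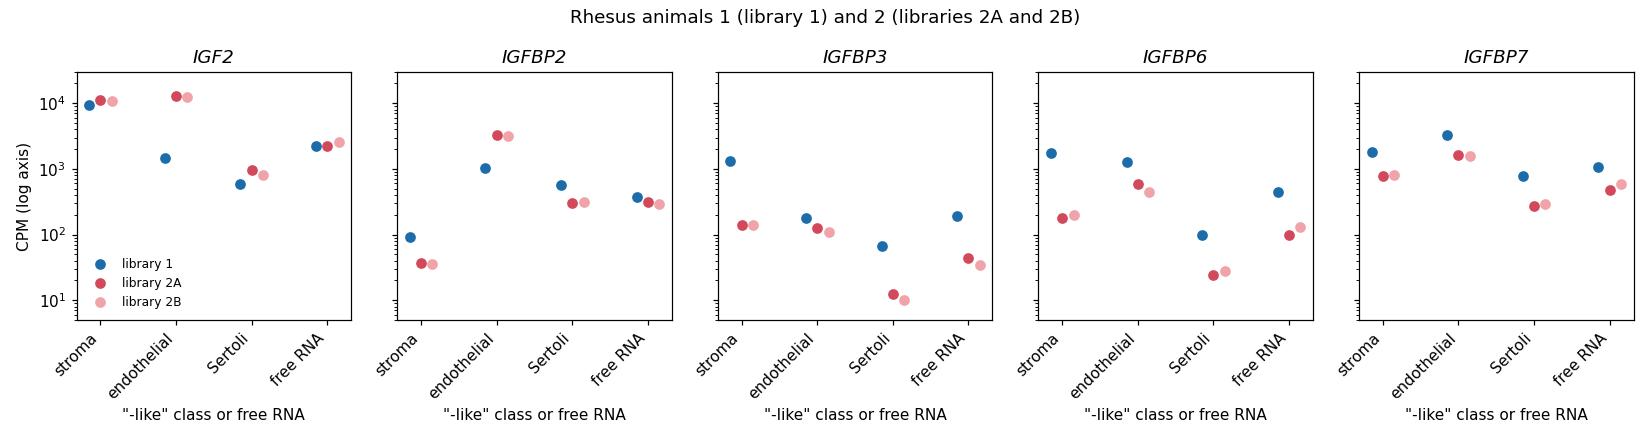
Levels of IGF2, IGFBP2, IGFBP3, IGFBP6 and IGFBP7 in the 3 rhesus libraries, in CPM on a log axis with 1 point per library, for stroma-like, endothelial-like and Sertoli-like cells and for free RNA. Libraries 2A and 2B, both of rhesus 2, lie close together, and library 1, of rhesus 1, stands away from them for IGFBP3 and IGFBP6 in stroma-like cells and for IGF2 and IGFBP2 in endothelial-like cells.

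Within the stroma-like class, members were not uniform. Baboon cluster 1 (led by RARRES2, C7, MGP and DCN) held more IGFBP3 than cluster 7 (led by DLK1, COL15A1, TSHZ2 and NRK), at 2289 and 2107 CPM in baboon 1 and 2 against 604 and 539 CPM. IGFBP6 (647 and 461 CPM against 303 and 207 CPM) and IGF2 (1235 and 2397 CPM against 811 and 1580.2 CPM) were likewise higher in cluster 1 in both animals. IGFBP4 (1320.1 and 876 CPM against 1706 and 1348 CPM) and IGFBP7 (824 and 1128 CPM against 1516 and 2097 CPM) were instead higher in cluster 7. Among 5 rhesus stroma-like clusters, the one led by cell cycle genes (TOP2A, CENPF) was lowest for IGF2 (3286 and 5732 CPM), IGFBP5 (449.6 and 898 CPM), IGFBP3 (118 and 8.61 CPM) and IGF1 (62.3 and 25.8 CPM), and highest for IGFBP2 (214 and 84 CPM). That cluster scored 0.42 on the stroma list, just past the 0.4 needed for a name, against 0.87 for the largest cluster of the class. The largest rhesus stroma-like cluster (led by POSTN, HPGD and PI15) held 9442 and 11599 CPM of IGF2, 2449 and 4954 CPM of IGFBP5 and 1750.1 and 167 CPM of IGFBP3. These cluster values are descriptions, since clusters were drawn from the same cells.

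The rest of the IGF pathway was read from a list of 26 genes (adaptors, the PI3K-AKT-FOXO branch, growth hormone and insulin receptors, proteases that cut binding proteins and their inhibitors, IGF2 mRNA-binding proteins and other binding proteins). In baboon 21 were tested and 15 differed between classes by edgeR, and in rhesus 15 were tested and 8 differed, where 56.9% and 45.3% of all genes did. With the animal as a block these were 20 and 10, where 79.7% and 62.6% of all genes differed. In stroma-like cells 4 were higher in baboon and 1 in rhesus, none lower. Sertoli-like cells had 2 higher and 2 lower in baboon and 1 lower in rhesus, endothelial-like cells 4 higher and 2 lower in baboon and 2 and 2 in rhesus, and germ-like cells 6 higher and 3 lower in baboon and 2 and 5 in rhesus. Pericyte-like cells had 4 higher in baboon and 1 in rhesus, macrophage-like cells 1 higher in baboon and none called in rhesus, and rhesus Leydig-like and myoid-like cells 2 and 1 higher. The shares of all genes called in each class are those given above for the members; 9 of 21 in baboon germ-like cells, for example, stands against 41.5%, and 4 of 21 in baboon Sertoli-like cells against 19.0%. With the block, calls numbered 8 in baboon Sertoli-like (33.9% of all genes), 9 in baboon stroma-like (27.0%), 10 in baboon endothelial-like (21.9%), 4 in rhesus Sertoli-like (20.8%), 3 in rhesus stroma-like (11.8%) and 2 in rhesus pericyte-like cells (3.66%).

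Genes of that list with the largest called differences were, in Sertoli-like cells of baboon, IGFALS, the acid-labile subunit that joins IGF and IGFBP3 in serum (20.2 CPM in baboon 1 and 13.5 CPM in baboon 2; adjusted p = 0.0046), and the transcription factor FOXO1, which AKT holds out of the nucleus (99.2 and 101 CPM; log2 difference 1.59 ± 0.32 SE, adjusted p = 0.0042). Both were higher there by edgeR. In endothelial-like cells the receptor-binding adaptor GRB10 was higher in baboon (94.2 and 147 CPM; adjusted p = 2.3e-06) and in rhesus (69.1 and 683 CPM; 5.55 ± 0.59 SE, adjusted p = 1.3e-05), and the adaptor SHC1 was higher in baboon (275 and 254 CPM; 3.2 ± 0.21 SE, adjusted p = 5.5e-07). The docking protein IRS1 was lower in rhesus endothelial-like cells (2.3 and 2.78 CPM; -3.65 ± 0.77 SE, adjusted p = 0.0054) and higher in baboon pericyte-like cells (42.8 and 50.8 CPM; 1.9 ± 0.40 SE, adjusted p = 0.010).

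Germ-like cells stood apart for IGF2BP1, which binds IGF2 mRNA, at 128 CPM in baboon 1 and 80.6 CPM in baboon 2 (edgeR, adjusted p = 8.1e-06) and 15 CPM in rhesus 1 and 16.5 CPM in rhesus 2 (adjusted p = 0.0013). IGFBPL1 was higher in baboon germ-like cells too, at 28.1 and 26.1 CPM (edgeR, adjusted p = 0.0002), and the regulatory subunit of PI3-kinase PIK3R1 was lower in rhesus germ-like cells (10 and 9.89 CPM; -2.67 ± 0.52 SE, adjusted p = 0.0012). STC1, an inhibitor of the IGFBP4 protease PAPPA, was high in rhesus Leydig-like cells at 1782 CPM in rhesus 1 and 1588 CPM in rhesus 2 (6.49 ± 0.37 SE, adjusted p = 1.5e-07), low in rhesus Sertoli-like cells at 12.5 and 8.53 CPM (-2.47 ± 0.59 SE, adjusted p = 0.012) and higher in baboon stroma-like cells at 61.4 and 72.2 CPM (adjusted p = 0.0001), all by edgeR. GHR, the growth hormone receptor upstream of IGF1, was higher in baboon stroma-like cells (16.1 and 21.3 CPM; edgeR adjusted p = 0.0085). HTRA1, a protease that cuts IGFBP5, was higher in rhesus stroma-like cells (536 and 346 CPM; 2.48 ± 0.36 SE, adjusted p = 0.00079).

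Smaller calls on the list, again by edgeR, were IRS2 in baboon pericyte-like (96.3 and 33.9 CPM; 1.9 ± 0.46 SE, adjusted p = 0.026) and rhesus myoid-like cells (110.1 and 184 CPM; 2.78 ± 0.63 SE, adjusted p = 0.024), PIK3R1 in baboon macrophage-like (92.6 and 188 CPM; 1.17 ± 0.31 SE, adjusted p = 0.042) and rhesus pericyte-like cells (77.9 and 166 CPM; 1.57 ± 0.38 SE, adjusted p = 0.049), and IRS1 in rhesus Leydig-like cells (76.9 and 29.7 CPM; 1.74 ± 0.44 SE, adjusted p = 0.035), all higher. IRS1 and IRS2 carry the signal from IGF1R and the insulin receptor to PI3-kinase.

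The genes whose levels were most like each member's, by Pearson's r of log2(CPM + 1) over the 12 baboon class sums among 12660 genes, were TMEM176A (0.90) and HAAO (0.90) for IGF1, CDKN1C (0.91) and EPHX1 (0.91) for IGF2, ATP1B1 (0.99) and NUDT11 (0.96) for IGF1R and C1QTNF5 (0.93) and GGT5 (0.90) for IGF2R. For the binding proteins they were PDLIM1 (0.97) and PDE8A (0.94) for IGFBP2, LOC101014578 (0.96) and COL5A1 (0.96) for IGFBP3, LOC101001096 (0.97) and RBMS3 (0.96) for IGFBP4, LOC103878622 (0.97) and SH3PXD2A (0.96) for IGFBP5, TMEM47 (0.96) and SNAI2 (0.94) for IGFBP6 and TNS2 (0.98) and RHOJ (0.97) for IGFBP7. Over the 16 rhesus class sums among 10366 genes they were BLVRB (0.82) and TICAM2 (0.82) for IGF1, NID1 (0.93) and MMP2 (0.92) for IGF2 and SPHK1 (0.96) and AK9 (0.95) for IGF1R. The rhesus binding proteins were nearest to AIF1L (0.86) and MICALL1 (0.84) for IGFBP2, ENSMMUG00000061824 (0.82) and PCOLCE (0.82) for IGFBP3, CAVIN2 (0.91) and APOD (0.87) for IGFBP4, QPRT (0.93) and GSTT1 (0.89) for IGFBP5, EGFLAM (0.87) and TIMP3 (0.86) for IGFBP6 and EHD2 (0.89) and STARD13 (0.89) for IGFBP7. These are descriptions: the sums of an animal share its libraries, and none of these genes was named for the same member in both species.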

How the data were processed

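Whole-testis cells of 2 baboons and 2 rhesus macaques were profiled as 6 droplet libraries. The deposited values were raw UMI counts per gene and barcode, made by the authors with Cell Ranger 3.1.0 (Seurat 3.2.3 is also named in the submitters' processing notes), with rhesus reads on Mmul_10 and baboon reads on Panubis1.0, and were not normalized. Cells were called from all barcodes by the UMI cutoff and the profile test of Cell Ranger 3, with at least 200 genes a cell. Doublets were estimated and kept.

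Cells were integrated and clustered in Seurat 5.3.0 for each species, without the members and the pathway genes, and clusters were named from marker lists. UMIs were summed per animal and class, leaving out sums of under 20 cells, and tested with edgeR 4.0.16 (quasi-likelihood, TMM scaling, filter on low counts, Benjamini-Hochberg adjustment over all genes). The unnamed rhesus clusters stayed out. On simulated data, 61.5% of 200 genes changed by 2 on the log2 scale in stroma-like cells were found in each species. Of the genes left unchanged, 10 in baboon and 14 in rhesus were called falsely. The simulated sums were drawn independently, without pairing by animal and without class differences in the unchanged genes. The check therefore does not cover those features of the data. Class sums of an animal are paired by that animal, and their deviations correlated at 0.083 to 0.652 (median 0.237, 15 pairs of classes) in baboon and 0.0617 to 0.617 (median 0.214, 28 pairs) in rhesus. Alternatives were DESeq2 1.42.0, no filter, libraries as samples, other cell calls and classes, and an animal block. Each animal's sum was also left out of the tested class in turn. Fits to 1 animal alone gave differences without a p-value.

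Members and lists were chosen with earlier results of these data known. Named were all members, the 2 pathway genes with the largest called difference per class, and the 2 genes most correlated with each member.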

Additional observations from a re-analysis of the deposited data

Results flagged for a closer look

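For 1 gene both animals of one species differed from the mean of the other classes in one direction and both animals of the other species in the opposite direction. The difference between species was not tested, because the species were quantified on different annotations and have different classes. IGF1, IGF1R and IGF2R were not compared in this way, since each had a class without a UMI in at least 1 animal, so that its fitted differences depend on the prior count.

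IGFBP2 in pericyte-like cells lay above the mean of the other classes in baboon, at 1.63 (edgeR's quasi-likelihood test, adjusted p = 0.041). In rhesus it lay at -2.31 (adjusted p = 0.16). Each animal alone gave 2.06 and 1.72 in baboon and -2.04 and -2.16 in rhesus. The baboon call was lost without either animal's class sum (1.86 and 1.28) and with coarser clusters (1.53, adjusted p = 0.052). Baboon pericyte-like cells scored equally on the pericyte and myoid lists. Rhesus had a separate myoid-like class, where IGFBP2 was called higher (2.23, adjusted p = 0.018). The classes compared are thus unlike, and the part of this in the opposite directions was not tested. Levels were 941 and 1514 CPM in baboon and 92.1 and 73.6 CPM in rhesus, where pericyte-like cells of rhesus 1 held 2529 CPM of the pericyte list against 9979 CPM in rhesus 2, and free RNA held IGFBP2 at 292 to 368 CPM.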

How the results depend on the processing

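Of the called pairs of a member and a class, 20 of 33 in baboon and 7 of 27 in rhesus kept their direction and stayed past the threshold in every alternative that gave a test, and 13 and 20 were lost in at least 1. The direction turned for 4 of them: with cells classed one by one in baboon, where a lymphoid-like class entered and the pericyte-like and macrophage-like ones left, IGF1R in endothelial-like cells was 1.04, IGFBP6 in germ-like cells 1.02 and IGF1 in Sertoli-like cells 1.58, and IGF2 in rhesus endothelial-like cells was -0.17 to 2.82 from 1 animal alone and -0.21 without the class sum of rhesus 2. Pairs called in rhesus were 48 with no filter on low counts and 42 with libraries as samples, in place of 27. They were 12 to 13 when 1 animal's class sum was left out, and 24 to 29 in baboon, in place of 33. With no filter, 10817 genes in place of 6892 differed between baboon classes and 6614 in place of 4394 between rhesus classes. With libraries as samples, 5921 of 7881 genes differed between rhesus classes. In rhesus stroma-like cells, 1113 of 18612 genes were called with no filter and 1489 of 7881 with libraries as samples, in place of 447 of 9710. Members highest in stroma-like cells numbered 6 in each species, 5 to 6 in baboon and 3 to 6 in rhesus with 1 animal alone, and by the share of cells with a UMI 5 in baboon, or 3 without thinning. The 6 of rhesus include IGF2R, which fell below the filter and overlapped with the next class. How many of all genes are highest in stroma-like cells was not counted, so these numbers describe the members only. The alternatives change the sums, cells or genes used, and the cause of the changed counts was not tested.

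With the animal as a block, which pairs the class sums of an animal, 42 pairs were called in baboon and 40 in rhesus, and no called pair was lost. In that fit 9659 and 6082 genes differed between classes (79.7% and 62.6% of those tested, against 56.9% and 45.3% without the block).

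DESeq2, whose scaling, test and gene filter all differ from edgeR's (25615 genes in place of 12118 entered in baboon and 18612 in place of 9710 in rhesus), moved the median of the genes tested by both by up to -0.22 (log2) in baboon Sertoli-like cells, and turned the higher and lower calls from 1418 and 887 to 1366 and 3000 there, from 678 and 153 to 970 and 68 in macrophage-like and from 1159 and 414 to 1444 and 1055 in stroma-like cells. In rhesus they went from 395 and 44 to 406 and 123 in Leydig-like, from 793 and 365 to 689 and 846 in Sertoli-like, from 904 and 93 to 816 and 199 in endothelial-like and from 363 and 84 to 371 and 389 in stroma-like cells. Depth limits the small classes most: a macrophage-like level in baboon rested on as few as 6 UMIs for IGF1.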

Other observations

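A rhesus cluster of 2186 cells, led by WFDC1, HAPLN1, TGFBI, NGFR and BGN, was left unnamed. It scored 0.76 on the stroma list, but its leading genes held ACTA2 of the myoid list and no stroma marker. Some clusters named stroma-like also lacked a stroma marker among their leading genes, but these held no marker of another list. The unnamed cluster held high levels of most of the members that were high in stroma-like cells. IGF2 was 6599 CPM in rhesus 1 and 7604 CPM in rhesus 2, IGF1 193 and 86.3 CPM and IGFBP5 534 and 3859.6 CPM. IGFBP4 was higher there than in every named rhesus class in both animals, at 151 and 119 CPM. IGFBP7 was 3585 and 2007 CPM, IGFBP6 794 and 209 CPM and IGFBP3 251 and 25.5 CPM. IGF1R was at 1.69 and 7.69 CPM there. With the cluster as a class of its own, an alternative added after seeing the data, 8 of 9 tested members differed between rhesus classes by edgeR, where 9 of 9 had without it. IGFBP3 was the one that did not pass (adjusted p = 0.053, against 0.028 without the cluster).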
